A study of Mus musculus with 59 samples.

Results

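Induced pluripotent stem cells (iPSC) whose origin label reads PFs were set against iPSC from blood cells of the same animals. The clones were chosen by label: every iPSC whose origin names mouse 1 or mouse 2. That gave 5 PF-derived clones (iPSC-19 and iPSC-20 of mouse 1, iPSC-32, iPSC-33 and iPSC-34 of mouse 2) and 22 blood-derived clones, 27 of the 59 arrays of the series. The blood-derived clones were 4 from haematopoietic stem cells (HSC), 4 from granulocyte-macrophage progenitors (GMP) and 3 from granulocytes in each mouse. All 27 share 1 genetic source: the mice were chimeras made with KH2 embryonic stem cells (ESC) that carry an inducible cassette of myc, Klf4, Oct4 and Sox2. The label PF is not spelled out, and the labels give no age, sex or passage for these clones. Other clones serve as reference points: 4 targeted KH2 ESC clones, and 6 clones labelled TTF with 9 blood-derived clones from a further animal, chimera 2. All lines grew in ESC medium with 15% serum and LIF on irradiated embryonic fibroblasts (MEF feeder cells), which were depleted by 45 minutes of preplating before RNA extraction. Each clone gave 1 Affymetrix array, and values below are the deposited intensities on a log2 scale whose zero is near the mean of each array. A difference is blood-derived minus PF-derived, fitted with the mouse as a term, so positive values are higher in blood-derived clones.

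Reprogramming resets a somatic cell to a state close to that of an ESC by forced expression of the factors named above. Transcripts of the starting cell can persist or silenced genes can fail to reopen, and clones can also differ in imprinted genes, whose expression depends on marks set on 1 parental allele. In pluripotent cells germ-cell genes are held down by E2f6 and the Polycomb complex PRC1.6, and the factor Atf4 drives amino acid synthesis and uptake when amino acids are short or the endoplasmic reticulum is stressed.

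The 27 arrays were alike in scale, with medians of -0.209 to -0.095 and SDs of 2.54 to 2.64, and no 2 were identical. A pair of PF clones of mouse 2 stood apart. In iPSC-34, whose mean correlation with the other 26 arrays was lowest (0.984, against up to 0.995), 534 bright genes of chromosome 11 lay 0.30 above the other PF clones in the median, while every other clone and chromosome gave -0.10 to 0.09. In iPSC-32, Pou5f1 (Oct4), the central pluripotency factor, read 0.28 against 4.06 to 4.68 in the other 26 clones, although Nanog read 5.17 and Sox2 4.24 there. Pou5f1 has 1 probe set on the array. Results that rest on either clone are given without it. Apart from that value, the 6 pluripotency markers read 3.43 or more in every clone. Of 10 blood cell markers, Ptprc, Mpo, Elane and Itgam had means in the lowest 10.4% of genes, while the other 6 lay between the percentiles 22.8 (Spi1) and 58.2 (Coro1a). With 2 mice, and clones as the units of the tests, p-values measure the spread between clones and not between animals.

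**Figure D1:**
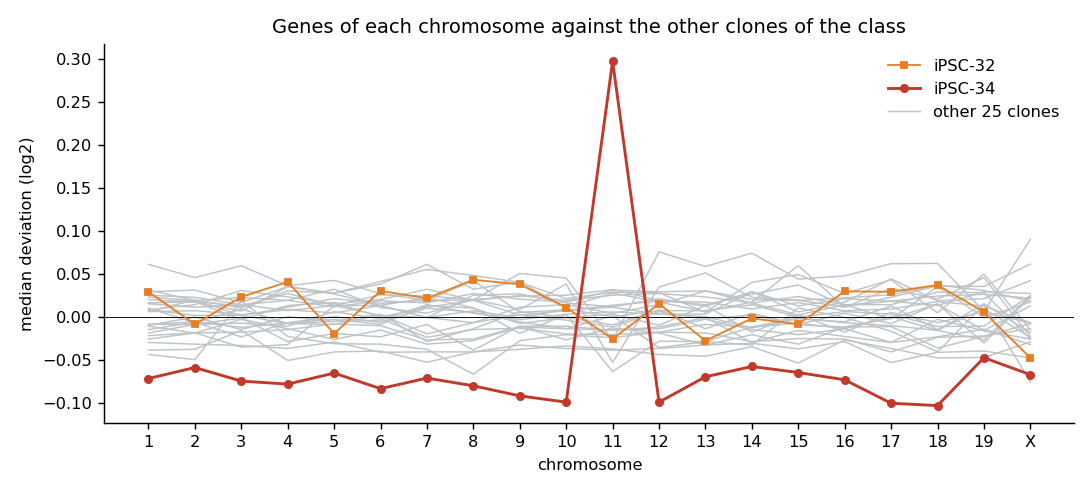
Median deviation of each clone's genes from the other clones of its class (PF or blood), by chromosome, on the log2 scale, over genes with a mean above 0. The genes of chromosome 11 in iPSC-34 lie at 0.30, outside the range of -0.10 to 0.09 of all other clones and chromosomes.

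Of 11807 genes, 2992 (25.3% of those tested) were higher and 2264 (19.2%) lower in blood-derived clones at an adjusted p under 0.05. Most differences were small: 47 of the higher and 80 of the lower genes differed at least 2-fold. The median over all genes was 0.01. Within mouse 1, which has 2 PF clones, 979 genes (8.29%) were higher and 431 (3.65%) lower. Within mouse 2, 2735 (23.2%) were higher and 2103 (17.8%) lower. The mice share no arrays, but both were read from 1 fit with a shared estimate of spread, so their calls are not independent. In both, 1061 genes were called in the same direction, 75.2% of the calls of mouse 1 and 21.9% of those of mouse 2. Another 11 were called in opposite directions. The difference itself differed between the mice for 590 genes, 191 of them (1.62% of genes) with a more positive and 399 (3.38%) with a more negative value in mouse 2. Single PF clones weighed on the per-mouse counts: without iPSC-19, 244 genes were called in mouse 1 and 87 differed between the mice, while 1106 differed without iPSC-32 and 1002 without iPSC-33. Leaving out both iPSC-32 and iPSC-34 left 3947 calls in the pooled comparison and 135 between the mice.

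**Figure D2:**
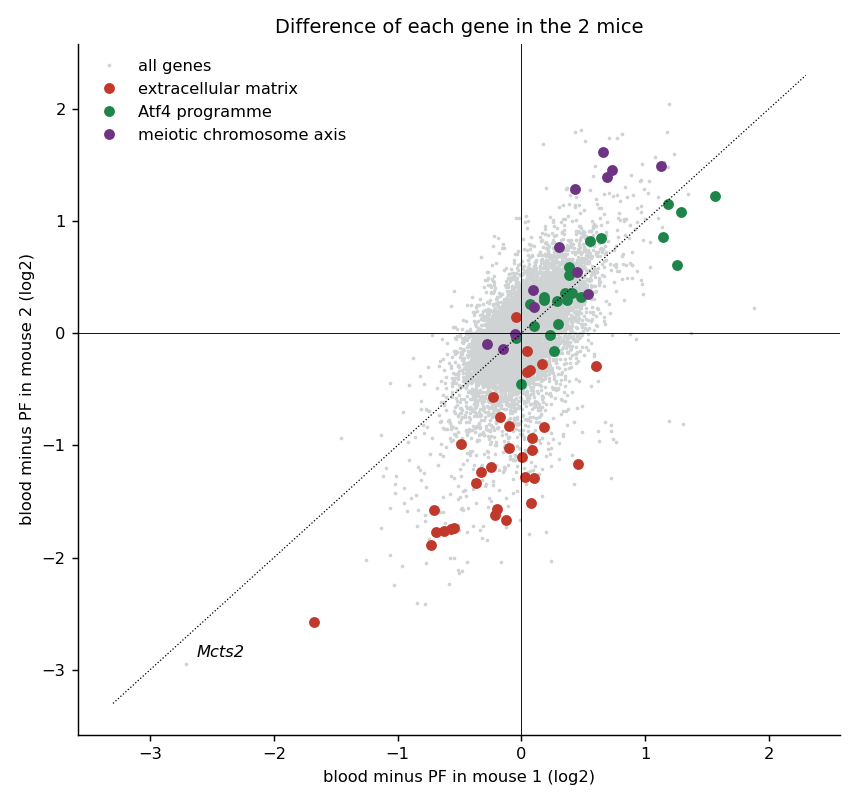
Blood minus PF difference of each gene (log2) in mouse 1 (x axis) and mouse 2 (y axis), with genes of 3 lists in colour and the line of equal differences dotted. Atf4-list genes lie near the line, most extracellular matrix genes lie far below it, and Mcts2 is lowest in both mice.

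Mcts2, an imprinted retrogene that lies within the H13 gene and is expressed from the paternal allele, had the most negative difference of all genes. It read 3.43 and 3.58 in the PF clones of mouse 1 and 3.94, 3.50 and 3.70 in those of mouse 2. In the 22 blood-derived clones it ran from -0.30 to 1.50 with a median of 0.76, so the groups did not overlap. The difference was -2.85 (SE 0.21, adjusted p = 8.94e-11), 7.22-fold lower in blood-derived clones, and -2.71 in mouse 1 and -2.95 in mouse 2. All 5 PF clones lay above all 22 blood-derived clones for 117 genes (0.991% of those tested), and Mcts2 was 1 of these. The 4 ESC clones read 3.45 to 3.48, in the range of the PF clones. The blood-derived clones of chimera 2 were lower than its TTF clones too, by a difference of -1.81 (adjusted p = 3.72e-06). Mcts2 has 1 probe set, and Mcts1, the X-linked gene it was copied from, differed by 0.06 (adjusted p = 0.32).

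Mcts2 lies at chr2:152687148-152687946 inside the span of H13 (chr2:152669422-152708668, GRCm38.p6). The 250 bases before its start (chr2:152686898-152687147, + strand; RefSeq, GRCm38.p6) are shown because the promoters of imprinted retrogenes carry the parental methylation mark, which was not measured here. CG pairs, the sites of that mark, are in capitals.
Mcts2: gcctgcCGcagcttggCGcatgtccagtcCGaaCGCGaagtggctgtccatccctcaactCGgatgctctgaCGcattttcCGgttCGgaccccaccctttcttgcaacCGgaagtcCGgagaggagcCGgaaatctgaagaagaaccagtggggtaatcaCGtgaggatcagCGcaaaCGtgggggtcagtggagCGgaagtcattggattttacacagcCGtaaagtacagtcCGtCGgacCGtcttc
The stretch holds 20 CG pairs, against a median of 13 in the same window of 9425 measured genes, of which 28.8% hold at least as many. H13, which encodes a signal peptide peptidase, gave a split answer over its 5 probe sets. On the brightest the difference was -0.13 (adjusted p = 0.135), turning from 0.18 in mouse 1 to -0.36 in mouse 2 (test between mice, adjusted p = 0.00371). On another probe set it was -1.32 (adjusted p = 4.10e-11), with -1.43 in mouse 1 and -1.25 in mouse 2. The files do not say which part of H13 each probe set reads.

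Of the 2 other imprinted retrogenes measured, Mkrn3 was higher in blood-derived clones by 0.86 (adjusted p = 3.67e-06), and Nap1l5 differed by 0.19 (adjusted p = 0.386). Of the other host genes, Blcap gave -0.14 (adjusted p = 0.0223) and Commd1 gave -0.03 (adjusted p = 0.698). Cdk5rap1, listed with them although no retrogene is named for it here, was higher by 0.30 (adjusted p = 1.15e-04). The call for Blcap was lost without iPSC-32 or without iPSC-33 (adjusted p = 0.0759 and 0.0521). Among 29 further imprinted genes, 8 were higher and 9 lower, against 25.3% and 19.2% of all genes. When 1 clone was left out, 6 to 10 were lower, beside 1639 to 2499 of all 11807 genes. Airn, the noncoding RNA that silences Igf2r in cis, gave -0.85 (adjusted p = 8.44e-06), and Peg3, a zinc finger gene, 0.55 (adjusted p = 7.08e-04). Magel2, of the Prader-Willi region, gave -0.63 (adjusted p = 4.96e-04).

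The imprinted Dlk1-Dio3 cluster, whose maternal RNAs Meg3 and Rian are often silenced in iPSC, was lower in blood-derived clones for all 3 transcripts measured. Meg3 read 3.41 and 0.78 in the PF clones of mouse 1 and 1.73, 1.36 and 1.46 in those of mouse 2. Blood-derived clones ran from -0.45 to 1.75 with a median of 0.51, overlapping 4 of the PF clones, and the ESC read 2.74 to 3.38. Of the 27 clones, iPSC-19 alone read as high as the ESC. The difference was -1.15 (SE 0.32, adjusted p = 0.00436), and without iPSC-19 it was -0.71 (adjusted p = 0.0604). Rian, from the same cluster, read 3.52 in iPSC-19 and 0.39 to 2.55 in blood-derived clones. Its difference of -1.004 (adjusted p = 0.0155) became -0.71 (adjusted p = 0.109) without iPSC-19. Within mouse 1 Meg3 gave -1.46 (adjusted p = 0.0518) and Rian -1.14 (adjusted p = 0.146), and within mouse 2 -0.94 (adjusted p = 0.0743) and -0.91 (adjusted p = 0.101). Dlk1, the paternally expressed gene of the cluster, gave -0.72 (adjusted p = 7.64e-04), with values of -1.36 to 0.16 in PF and -1.89 to -0.38 in blood-derived clones.

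Genes of the Atf4 programme of amino acid supply and stress were higher in blood-derived clones, in both mice. Of 23 measured, 18 were higher and 1 lower (25.3% and 19.2% of all genes), with a median difference of 0.36 against 0.01 for all genes. In mouse 1, 14 were higher and 0 lower (8.29% and 3.65% of all genes). In mouse 2, 17 were higher and 1 lower (23.2% and 17.8% of all genes). For 12 of the 23, all 5 PF clones lay below all 22 blood-derived clones, which held for 366 of all genes (3.10%). Leaving out any single clone left 17 or 18 genes higher, beside 2579 to 3026 of all 11807 genes.

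Trib3, a pseudokinase that feeds back on Atf4, had the smallest p of all genes. It read 0.11 and 0.03 in the PF clones of mouse 1 and 0.15, 0.05 and -0.20 in those of mouse 2, and blood-derived clones ran from 0.80 to 1.48 with a median of 1.21. The difference was 1.17 (SE 0.06, adjusted p = 3.16e-14), with 1.29 in mouse 1 and 1.08 in mouse 2. The ESC read 0.00 to 0.30, close to the PF clones and below every blood-derived clone. Chac1, which degrades glutathione, read -0.10 and 0.08 in the PF clones of mouse 1 and -0.76, -0.26 and -0.80 in those of mouse 2. Blood-derived clones read 1.20 to 1.80 in mouse 1 and 0.19 to 0.95 in mouse 2, above every PF clone. The difference was 1.37 (SE 0.10, adjusted p = 2.38e-11), 2.58-fold. Atf4 itself read 4.54 to 4.77 in PF and 4.85 to 5.16 in blood-derived clones, without overlap, and differed by 0.36 (SE 0.03, adjusted p = 6.30e-09). That is the brighter of its 2 probe sets, and the other gave -0.07 (adjusted p = 0.504).

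Enzymes that make amino acids moved with them. Aldh18a1, the first enzyme of proline synthesis, differed by 1.16 (SE 0.07, adjusted p = 2.83e-13). Psph, the last enzyme of serine synthesis, read 2.63 to 2.84 in PF and 3.27 to 3.57 in blood-derived clones and differed by 0.71 (SE 0.04, adjusted p = 1.42e-12). Gpt2, the mitochondrial alanine transaminase, is not on the list and was named by its p. It read 2.25 to 2.68 against 3.39 to 3.86 and differed by 1.19 (SE 0.06, adjusted p = 1.77e-13). Pck2, a mitochondrial enzyme of glucose synthesis, gave 0.98 (adjusted p = 8.88e-11), and the glycine transporter Slc6a9, also named by its p, gave 1.17 (adjusted p = 1.60e-12), although a second probe set of Slc6a9 gave 0.09 (adjusted p = 0.338). Nupr1, a small stress-induced nuclear protein, read 3.48 and 3.21 in the PF clones of mouse 1 and 4.13, 3.70 and 4.01 in those of mouse 2, with 4.46 to 4.71 in blood-derived clones. Its difference was 1.26 in mouse 1 and 0.61 in mouse 2, and the difference between them had an adjusted p of 0.00147. Ddit3 (Chop), a cell-death factor downstream of Atf4, was the 1 gene of the list called lower, at -0.27 (adjusted p = 0.0186). Its call was lost without any 1 of the 3 PF clones of mouse 2 (adjusted p of 0.0563 to 0.0722).

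Atf4 binds composite elements whose letters are TGATGNAAN. This motif was chosen after the values were seen. It was found on either strand in the 300-base promoter window of 8 of the 20 list genes in the RefSeq table (40.0%), against 3.11% of 9425 measured genes. Promoters of 3 genes that were higher in blood-derived clones are shown (250 bases before the start, 5′ to 3′ in the direction of the gene, RefSeq, GRCm38.p6), with the match in capitals. Chac1 is at chr2:119350992-119351241, + strand, with its match beginning 194 bases before the start. Nupr1 is at chr7:126625471-126625720, - strand, with a match 111 bases before. Asns, asparagine synthetase, differed by 0.27 (adjusted p = 0.00115) and is at chr6:7693210-7693459, - strand, with a match 23 bases before.
Chac1: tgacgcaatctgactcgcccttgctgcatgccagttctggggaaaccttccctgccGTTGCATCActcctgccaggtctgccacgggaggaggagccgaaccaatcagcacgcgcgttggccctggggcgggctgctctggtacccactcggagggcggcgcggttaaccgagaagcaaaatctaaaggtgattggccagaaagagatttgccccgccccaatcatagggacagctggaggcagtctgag
Nupr1: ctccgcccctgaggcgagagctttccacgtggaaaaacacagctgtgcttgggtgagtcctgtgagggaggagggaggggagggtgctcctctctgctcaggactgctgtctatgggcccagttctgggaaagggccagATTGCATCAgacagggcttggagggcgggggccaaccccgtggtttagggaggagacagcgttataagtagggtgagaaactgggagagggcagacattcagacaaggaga
Asns: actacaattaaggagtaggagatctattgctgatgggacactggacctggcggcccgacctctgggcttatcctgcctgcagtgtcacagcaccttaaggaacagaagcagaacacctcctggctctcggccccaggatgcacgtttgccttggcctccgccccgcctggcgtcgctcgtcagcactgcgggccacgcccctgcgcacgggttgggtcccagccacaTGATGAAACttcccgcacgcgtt
Capitals reading TGATG show a match on the gene's strand, and those ending in CATCA one on the opposite strand. A match shows only that the letters are there.

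In chimera 2 the same list gave another picture. The list mean per clone had a median of 2.18 (range 2.02 to 2.19) in PF and 2.27 (2.19 to 2.74) in TTF clones. In blood-derived clones it was 2.61 (2.46 to 2.72) in mouse 1 and mouse 2 and 2.40 (2.21 to 2.42) in chimera 2. In chimera 2, blood minus TTF was positive and called for 6 of the 23 genes and negative for 4 (19.9% and 15.3% of all genes), with a median of 0.07. The difference from blood was more positive for PF than for TTF for 15 of the 23 (9.07% of all genes) and more negative for 0 (5.84% of all genes). For Chac1, blood minus TTF was -0.28 (adjusted p = 0.159), and the test of the 2 differences gave 1.65 (SE 0.21, adjusted p = 9.92e-07). For Trib3, blood minus TTF was -0.01 (adjusted p = 0.953), and the test gave 1.18 (SE 0.15, adjusted p = 1.45e-06). Atf4 was also among the genes with the smallest p in this test, at 0.46 (adjusted p = 3.78e-09). PF and TTF clones came from different animals, so label and animal cannot be told apart.

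**Figure D3:**
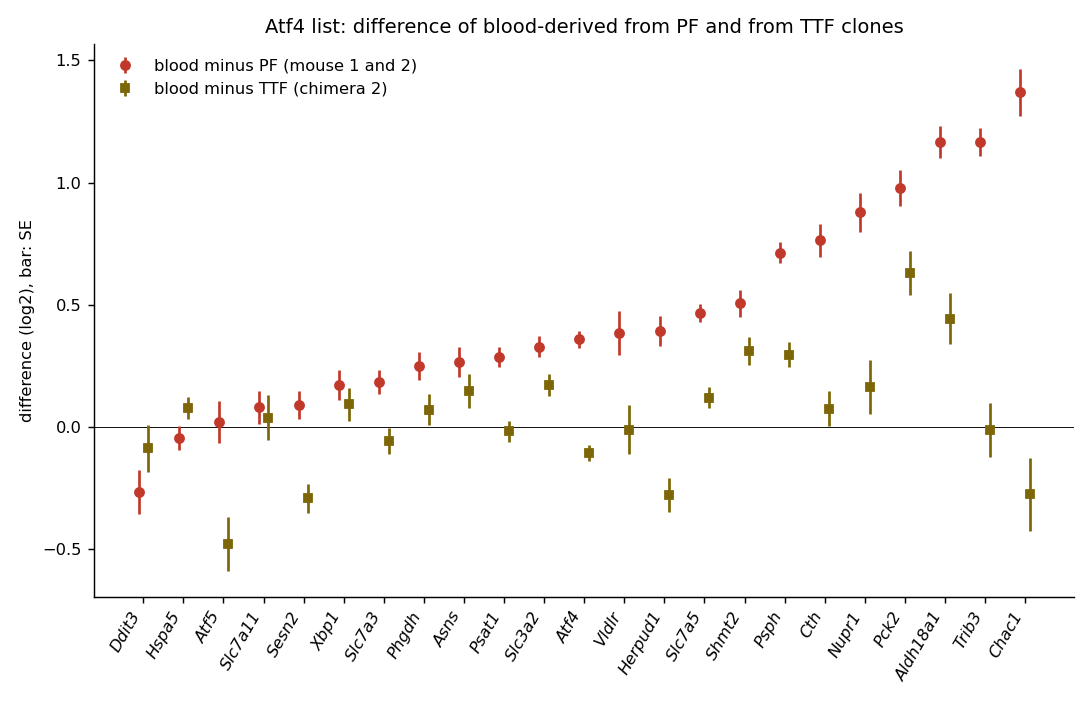
Difference of blood-derived clones from PF clones (circles, mouse 1 and mouse 2) and from TTF clones (squares, chimera 2) for the 23 measured genes of the Atf4 list, on the log2 scale with bars of 1 SE. Chac1 lies at 1.37 against PF and -0.28 against TTF, and Trib3 at 1.17 and -0.01.

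Genes of the meiotic chromosome, which pluripotent cells express at a low level, were higher in blood-derived clones. Of 13 measured, 10 were higher and 1 lower (25.3% and 19.2% of all genes), with a median of 0.51. In mouse 1, 6 were higher (8.29% of all genes), and in mouse 2, 10 were (23.2% of all genes). Hormad1, a protein of the meiotic chromosome axis, read 0.07 and 0.73 in the PF clones of mouse 1 and 1.73, 0.72 and 0.30 in those of mouse 2. Blood-derived clones read 1.30 to 1.79 in mouse 1 and 2.25 to 2.63 in mouse 2, so the groups were apart within each mouse while iPSC-32 lay among the blood-derived clones of mouse 1. The difference was 1.34 (SE 0.13, adjusted p = 5.95e-09).

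Stag3, a meiotic cohesin subunit, read 0.56 and 0.51 in the PF clones of mouse 1 and 0.68, -0.08 and -0.87 in those of mouse 2, all below the 0.84 to 1.76 of blood-derived clones. The difference was 1.22 (SE 0.16, adjusted p = 1.24e-06), larger in mouse 2 (1.62) than in mouse 1 (0.66; test between mice, adjusted p = 0.0431). Smc1b, its partner in the cohesin ring, read -1.17 to -0.64 in PF and -0.88 to 0.72 in blood-derived clones and differed by 1.10 (SE 0.14, adjusted p = 5.86e-07). Sycp3, of the synaptonemal complex axis, differed by 0.93 (adjusted p = 6.58e-07), and Tex11, an X-linked crossover factor, by 1.16 (adjusted p = 1.13e-08). Rec8, the meiotic kleisin, gave 0.43 (adjusted p = 4.34e-04), Dmc1, the meiotic recombinase, 0.57 (adjusted p = 1.51e-04), and Mlh3, a mismatch repair protein, 0.51 (adjusted p = 0.0087). Tex12 and Syce2, of the central element, gave 0.27 (adjusted p = 0.00625) and 0.18 (adjusted p = 0.0306). The call for Tex12 was lost without iPSC-33 (adjusted p = 0.0514) and that for Syce2 without iPSC-19, iPSC-32 or iPSC-34 (adjusted p = 0.058, 0.235 and 0.112). Spo11, the meiotic nuclease, was the 1 lower gene at -0.17 (adjusted p = 0.035), and lost its call without iPSC-19, iPSC-20, iPSC-33 or iPSC-34 (adjusted p of 0.0527 to 0.117). Msh4 gave -0.03 (adjusted p = 0.712) and Msh5 -0.14 (adjusted p = 0.206).

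E2f6 binds the letters TCCCGC. They were found on either strand in the promoter window of 9 of the 11 meiotic genes in the RefSeq table (81.8%), against 33.9% of 9425 measured genes. Upstream stretches of Smc1b (chr15:85131958-85132207, - strand), Hormad1 (chr3:95559427-95559676, + strand) and Sycp3 (chr10:88459337-88459586, + strand) are shown in the same way, with the match in capitals at 47, 95 and 147 bases before the start.
Smc1b: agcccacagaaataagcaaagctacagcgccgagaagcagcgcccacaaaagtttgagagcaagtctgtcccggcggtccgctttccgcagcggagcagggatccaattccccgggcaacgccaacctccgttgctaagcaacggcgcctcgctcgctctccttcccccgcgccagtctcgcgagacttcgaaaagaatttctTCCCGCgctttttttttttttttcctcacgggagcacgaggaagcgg
Hormad1: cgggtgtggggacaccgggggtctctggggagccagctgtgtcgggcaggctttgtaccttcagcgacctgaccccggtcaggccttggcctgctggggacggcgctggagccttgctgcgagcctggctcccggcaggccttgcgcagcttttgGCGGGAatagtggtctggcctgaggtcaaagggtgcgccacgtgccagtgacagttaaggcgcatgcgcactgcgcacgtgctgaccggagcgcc
Sycp3: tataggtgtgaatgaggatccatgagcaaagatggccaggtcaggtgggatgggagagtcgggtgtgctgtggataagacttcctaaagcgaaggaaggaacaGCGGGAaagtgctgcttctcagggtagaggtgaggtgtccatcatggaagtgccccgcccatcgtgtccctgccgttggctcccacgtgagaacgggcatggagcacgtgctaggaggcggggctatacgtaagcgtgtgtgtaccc
GCGGGA is the same motif on the opposite strand, and a match again shows only that the letters are there. Of the repressors themselves, E2f6 differed by 0.04 (adjusted p = 0.677). Pcgf6, the subunit that defines PRC1.6, was higher in blood-derived clones by 0.41 (adjusted p = 6.48e-06), with 1 other probe set at -0.23 (adjusted p = 0.0886). Of 14 genes of this repressor group, 8 were higher and 1 lower (25.3% and 19.2% of all genes). Without iPSC-34, 5 were higher, beside 2579 of all 11807 genes. The 8 higher genes included the histone methyltransferase Ehmt2 at 0.56 (adjusted p = 5.38e-06), with a second probe set at -0.08 (adjusted p = 0.431). They also included the deacetylases Hdac2 at 0.34 (adjusted p = 1.54e-05) and Hdac1 at 0.29 (adjusted p = 3.25e-04). Mga, the DNA-binding subunit, gave 0.33 (adjusted p = 0.0158), which became 0.21 (adjusted p = 0.135) without iPSC-34. Tfdp1, the partner of E2F factors, was the lower gene at -0.20 (adjusted p = 3.15e-04).

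Of 18 other germ-cell genes, 13 were higher and 1 lower (25.3% and 19.2% of all genes), with a median of 0.52. TCCCGC stood in the windows of 3 of the 15 in the table (20.0%), against 33.9% of measured genes. Stra8, the retinoic acid target at meiotic entry, gave 1.02 (SE 0.12, adjusted p = 3.39e-07). Dmrt1, a gonadal transcription factor, read 0.72 to 1.58 in PF and 2.02 to 2.51 in blood-derived clones, without overlap, and differed by 0.97 (SE 0.09, adjusted p = 1.93e-09). Ddx4 (Vasa), the germ-cell helicase, gave 0.96 (adjusted p = 6.75e-07), and Taf7l, an X-linked germ-cell subunit of TFIID, 1.01 (adjusted p = 1.13e-06). D1Pas1, an autosomal helicase gene of the testis, had the largest positive difference of all genes, 1.69 (SE 0.19, adjusted p = 7.68e-08), with -2.27 to -0.10 in PF and -0.01 to 1.19 in blood-derived clones. In chimera 2, blood-derived clones exceeded TTF clones for 9 of the 13 meiotic and 12 of the 18 germ-cell genes (19.9% of all genes). Of the genes for DNA methylation, which silences germ-cell promoters, 3 of 6 were higher and 0 lower (25.3% and 19.2% of all genes). Dnmt3l, the cofactor of the de novo enzymes, read 4.36 in iPSC-32 and 3.48 to 3.71 in the other PF clones, against 4.23 to 4.54 in blood-derived clones, and differed by 0.68 (SE 0.07, adjusted p = 5.86e-08). Dnmt3a gave 0.32 (adjusted p = 6.99e-07), without overlap of the groups.

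**Figure D4:**
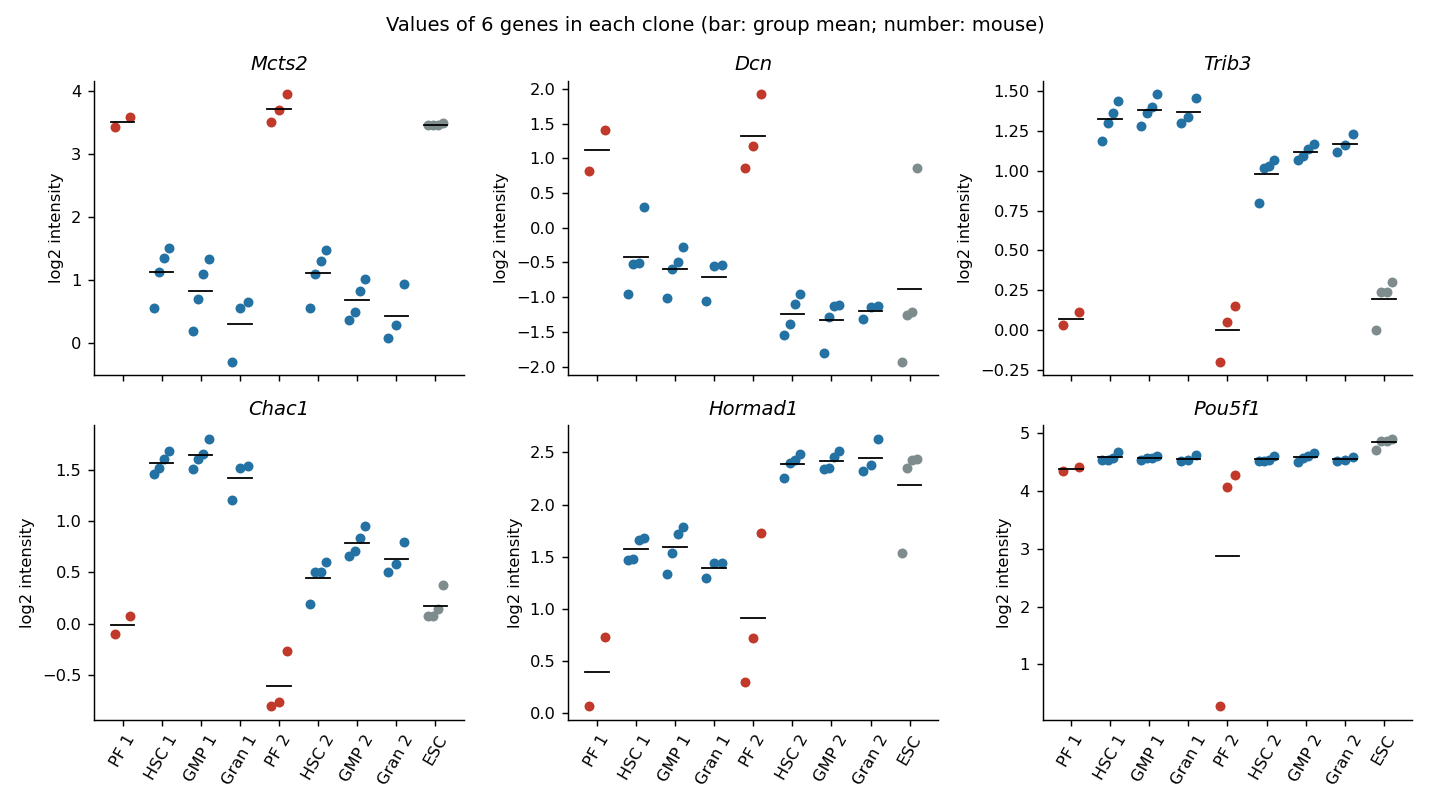
Values of 6 genes in each clone (log2 intensity), grouped by origin and mouse, with ESC at the right and bars at group means. PF clones (red) lie above all blood-derived clones (blue) for Mcts2 and Dcn and below all of them for Trib3 and Chac1; iPSC-32 is the PF clone of mouse 2 at 0.28 for Pou5f1.

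Genes of the extracellular matrix were lower in blood-derived clones, and by more in mouse 2. Of 32 measured, 25 were lower and 0 higher (19.2% and 25.3% of all genes), with a median of -0.72. In mouse 1 the median was -0.11, with 6 lower and 1 higher (3.65% and 8.29% of all genes). In mouse 2 it was -1.18, with 30 lower (17.8% of all genes). The 2 mice differed for 25 of the 32, all with the more negative value in mouse 2 (3.38% of all genes). Without iPSC-32 and iPSC-34 together, 16 were lower, beside 1558 of all 11807 genes. In chimera 2, 26 of the 32 were lower and 1 higher in blood-derived than in TTF clones (15.3% and 19.9% of all genes).

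Dcn (decorin), a proteoglycan of connective tissue that is also imprinted in placenta, read 1.41 and 0.82 in the PF clones of mouse 1 and 1.92, 1.17 and 0.86 in those of mouse 2. Blood-derived clones read -1.06 to 0.30 in mouse 1 and -1.81 to -0.95 in mouse 2, all below the PF clones. The difference was -2.20 (SE 0.18, adjusted p = 4.44e-10), 4.6-fold lower. In the ESC it spread from -1.93 to 0.86. Thbs2, a matrix glycoprotein, differed by -0.73 in mouse 1 and -1.89 in mouse 2 (test between mice, adjusted p = 0.0224). The collagen VI chains Col6a1 and Col6a2 gave -0.63 and -0.69 in mouse 1 and -1.76 and -1.77 in mouse 2. Fap, the fibroblast activation protein, was lower only in mouse 2, at -0.93 (adjusted p = 3.80e-08) against 0.09 (adjusted p = 0.666), and the mice differed by -1.02 (adjusted p = 5.28e-04). Mmp10, a matrix metalloproteinase, was above the blood-derived range in all 5 PF clones and differed by -1.59 (SE 0.15, adjusted p = 4.74e-09).

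Transcription factors of mesenchyme followed, with 13 of 22 lower and 1 higher (19.2% and 25.3% of all genes), and 9 more negative in mouse 2 (3.38% of all genes). With 1 mean per origin and mouse, 8 were lower, beside 1987 of all 11807 genes. Twist2, of dermal and bone precursors, read -0.08 and 0.28 in the PF clones of mouse 1 and 1.12, 0.72 and 1.04 in those of mouse 2, above every blood-derived clone (-1.76 to -0.12). Its difference was -0.77 (adjusted p = 0.00785) in mouse 1 and -2.41 (adjusted p = 2.52e-11) in mouse 2, and these differed by -1.64 (adjusted p = 5.28e-04). Prrx1, of limb mesenchyme, gave -1.38 (adjusted p = 1.03e-06), and Hmga2, a chromatin protein of fetal cells, -1.08 (adjusted p = 7.74e-07). Jag1, a Notch ligand, was above the blood-derived range in all 5 PF clones, with -1.49 (SE 0.12, adjusted p = 2.82e-10). Of 13 chemokines and cytokines, 8 were lower and 0 higher (19.2% and 25.3% of all genes), with a median of -1.11. Ccl7, a monocyte attractant, differed by -1.61 (adjusted p = 5.51e-08), the neutrophil attractant Cxcl1 by -1.21 (adjusted p = 8.25e-09), the macrophage growth factor Csf1 by -1.23 (adjusted p = 1.52e-05), and Prl2c2 (proliferin) by -1.75 (adjusted p = 1.43e-05). Ccl7 lies on chromosome 11, where iPSC-34 read high, and it read 0.21 in iPSC-34 against -0.12 to 0.63 in the other PF clones. Inhba, a subunit of activin, and its antagonist Fst were both lower, at -1.46 (adjusted p = 1.98e-05) and -1.37 (adjusted p = 1.99e-06), and both more so in mouse 2 (adjusted p = 0.0123 and 5.28e-04 between mice).

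These genes are also made by fibroblasts such as the feeder cells. Of 8 fibroblast and feeder markers, 7 were measured and all 7 were lower in blood-derived clones (19.2% of all genes). Their mean per clone was 1.14 to 1.23 in PF clones of mouse 1 and 1.42 to 2.05 in those of mouse 2, against 0.23 to 1.36 and -0.16 to 0.35 in blood-derived clones of mouse 1 and mouse 2. It was -0.56 to 0.75 in ESC. In bulk RNA more cells of a type and more RNA per cell cannot be told apart, and the part of remaining feeder cells in these differences was not tested. Of 10 blood cell markers, 2 were higher and 4 lower in blood-derived clones (25.3% and 19.2% of all genes).

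**Figure D5:**
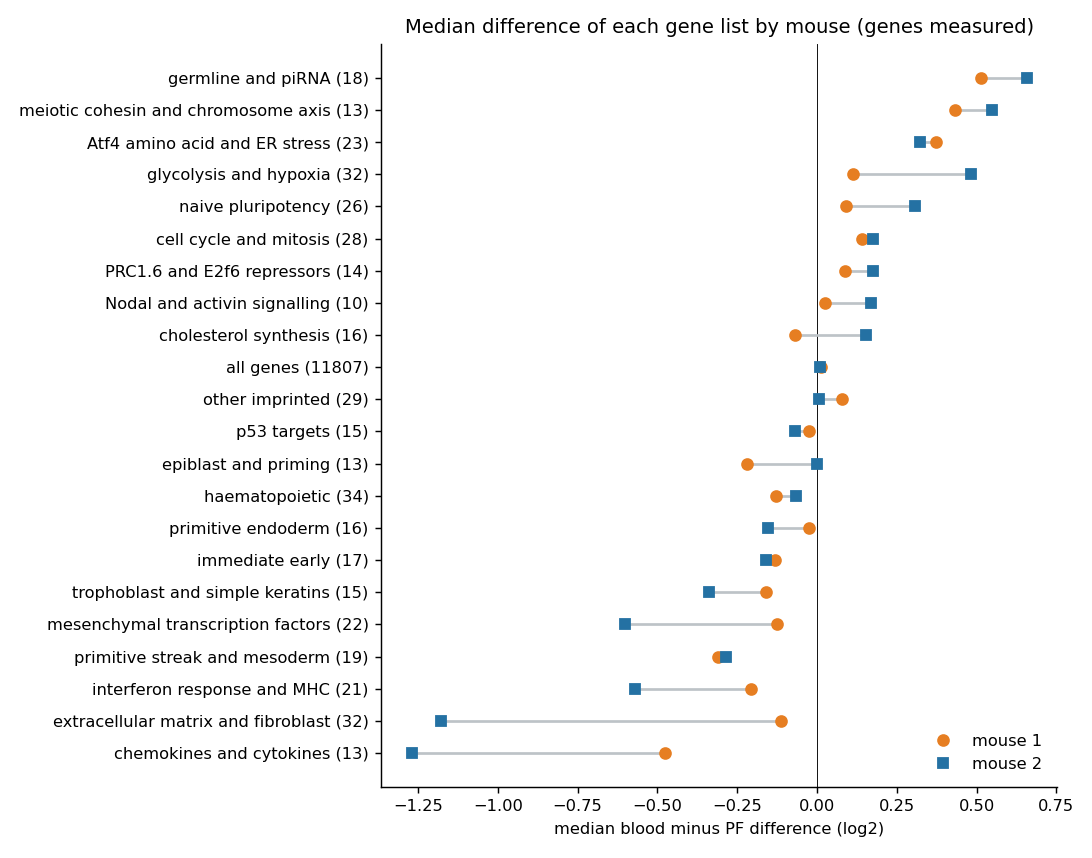
Median blood minus PF difference (log2) of each gene list with at least 10 measured genes, in mouse 1 (circles) and mouse 2 (squares). The Atf4 list lies near the same value in both mice, while the extracellular matrix list lies at -0.11 in mouse 1 and -1.18 in mouse 2.

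Interferon-response and MHC genes were lower in blood-derived clones, 16 of 21 against 1 higher (19.2% and 25.3% of all genes), with a median of -0.42. They varied widely among the PF clones. Gbp2, an interferon-induced GTPase, read 2.01 and 2.48 in the PF clones of mouse 1 and -1.29, 2.53 and 3.85 in those of mouse 2, so iPSC-34 was the highest of the 27 clones and iPSC-32 the lowest. Blood-derived clones read 0.11 to 1.98. The difference was -1.05 (SE 0.38, adjusted p = 0.0256), -0.81 (adjusted p = 0.114) without iPSC-33 and -0.48 (adjusted p = 0.257) without iPSC-34. Psmb8, an immunoproteasome subunit, read 1.02 and 0.86 in the PF clones of mouse 1 and -0.73, 1.37 and 2.45 in those of mouse 2 and differed by -1.23 (SE 0.24, adjusted p = 1.72e-04). H2-D1, a classical MHC class I gene, differed by -0.27 (adjusted p = 0.193) in mouse 1 and -1.54 (adjusted p = 1.82e-10) in mouse 2, and the 2 differed by -1.27 (adjusted p = 5.28e-04). Of its 5 probe sets, 1 gave -0.10 (adjusted p = 0.495). Without iPSC-34, 7 of the 21 genes were lower, beside 1639 of all 11807 genes. Ifi27l2a, an interferon-induced gene named by its p, was steadier, with 0.25 to 0.97 in PF and -0.87 to -0.05 in blood-derived clones and a difference of -1.19 (SE 0.10, adjusted p = 1.17e-09). In chimera 2 the direction turned: 10 of the 21 genes were higher and 1 lower in blood-derived than in TTF clones (19.9% and 15.3% of all genes). The list mean per clone had a median of 0.015 (range -0.482 to 0.585) in PF and -0.02 (-0.263 to 0.11) in TTF clones. In blood-derived clones it was -0.386 (-0.716 to -0.11) in mouse 1 and mouse 2 and 0.185 (0.091 to 0.406) in chimera 2. The difference from blood was more negative for PF than for TTF for 12 of the 21 (5.84% of all genes), and label and animal again cannot be told apart. Ddx60, an interferon-induced helicase, had the smallest p in that test. It differed by 0.11 (adjusted p = 0.469) from PF and by 2.41 (adjusted p = 2.32e-14) from TTF, which read -3.18 in the mean of 6 clones against -0.77 in 9 blood-derived clones of chimera 2.

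Of 26 naive pluripotency genes, 17 were higher and 1 lower in blood-derived clones in the pooled comparison (25.3% and 19.2% of all genes). In mouse 2, 16 were higher and 0 lower (23.2% and 17.8% of all genes). In mouse 1, 2 were higher and 1 lower (8.29% and 3.65% of all genes). The difference between the mice passed for 1 gene, with the more positive value in mouse 2 (1.62% of all genes). Without iPSC-32 and iPSC-34 together, 11 were higher, beside 2389 of all 11807 genes. Lifr, the LIF receptor, read 1.70 to 2.78 in PF and 2.51 to 3.32 in blood-derived clones and differed by 0.66 (adjusted p = 5.88e-05). Nr0b1 (Dax1) differed by 0.01 (adjusted p = 0.966) in mouse 1 and 0.84 (adjusted p = 3.80e-07) in mouse 2, and the mice differed (adjusted p = 0.00417). Gbx2, a LIF-responsive factor, passed in both mice, with 0.68 and 0.87. The ESC read -0.80 to 0.53.

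Of the 4 reprogramming factors, which the array reads from the endogenous genes, the cassette or both, Pou5f1 gave 1.06 (SE 0.33, adjusted p = 0.0112), with every PF clone below every blood-derived clone, and without iPSC-32 it was 0.28 (adjusted p = 1.17e-05). Sox2 gave 0.27 (adjusted p = 0.00354) and Klf4 0.30 (adjusted p = 0.00583). The call for Klf4 was lost without iPSC-34 (adjusted p = 0.0683), and in mouse 1 it read 4.15 to 4.37 in PF and 3.86 to 4.46 in blood-derived clones. Myc turned between the mice, from 0.33 (adjusted p = 0.262) in mouse 1 to -0.60 (adjusted p = 0.00441) in mouse 2, with an adjusted p of 0.0297 between them. Blood-derived clones of mouse 1 read 1.81 to 2.99, those of mouse 2 1.04 to 1.82 and the PF clones 1.84 to 2.35. Nanog, which the cassette does not carry, differed by 0.01 (adjusted p = 0.902).

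Of 19 primitive streak and mesoderm genes, 10 were lower in blood-derived clones and 0 higher (19.2% and 25.3% of all genes), with a median of -0.27. In mouse 1, 2 were lower (3.65% of all genes). Fgf8, of the streak and epiblast, differed by -0.84 (adjusted p = 1.09e-04), and Fgf5, an epiblast marker, by -0.59 (adjusted p = 3.28e-05). Mixl1, of the streak, read -1.50 and -1.26 in the PF clones of mouse 1 and -1.49, -0.26 and 0.23 in those of mouse 2, and its difference was -1.18 (adjusted p = 6.54e-06) in mouse 2 and -0.11 (adjusted p = 0.774) in mouse 1. The keratins Krt8 and Krt18, of simple epithelia, were lower, at -1.16 (adjusted p = 1.11e-04) and -0.73 (adjusted p = 9.67e-04). In iPSC-32 they read 1.25 and 2.77, while the other PF clones read at least 3.19 and 4.18 and blood-derived clones 1.21 to 2.84 and 3.08 to 4.24. Of 34 haematopoietic genes, the starting programme of the blood-derived clones, 6 were higher and 7 lower (25.3% and 19.2% of all genes). Without iPSC-34, 3 were higher and 5 lower, beside 2579 and 1639 of all 11807 genes. Kit, a receptor of blood and germ cells, was higher by 0.65 (adjusted p = 2.91e-05). Cd53 and Lcp1, a leukocyte tetraspanin and an actin bundler, were lower, at -1.45 (adjusted p = 6.16e-06) and -0.87 (adjusted p = 2.54e-05).

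Of 32 glycolysis and hypoxia genes, 19 were higher in blood-derived clones and 0 lower (25.3% and 19.2% of all genes), with a median of 0.31. In mouse 1, 2 were higher (8.29% of all genes), with a median of 0.11. In mouse 2, 20 were (23.2% of all genes), with a median of 0.48. Without iPSC-32 and iPSC-34 together, 12 were higher, beside 2389 of all 11807 genes. Ampd3, which deaminates AMP, passed in both mice and differed by 1.20 (SE 0.16, adjusted p = 1.16e-06). Bnip3, a mitophagy receptor, read 2.83 to 3.33 in PF and 4.07 to 4.61 in blood-derived clones of mouse 2, where it differed by 1.29 (adjusted p = 5.60e-07), against 0.37 (adjusted p = 0.207) in mouse 1. Egln3, a prolyl hydroxylase of the hypoxia pathway, gave 0.90 (adjusted p = 0.00185), and 0.65 (adjusted p = 0.0653) without iPSC-32 and iPSC-34. The letters ACGTG are the core of the hypoxia response element. They stood on either strand in the promoter windows of 23 of the 30 list genes in the table (76.7%), against 26.8% of measured genes. The list holds genes of the hypoxia response by choice, so this share does not bear on the difference. Called genes and genes without a call both had matches, and a match shows only that the letters are there. Blood-derived clones exceeded TTF clones in chimera 2 for 29 of the 32 (19.9% of all genes).

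Of 28 cell cycle genes, 17 were higher and 2 lower (25.3% and 19.2% of all genes), with a median of 0.16. After quantile normalization 10 were higher, without iPSC-34 12, and without iPSC-32 and iPSC-34 together 11. Of all 11807 genes, 2591, 2579 and 2389 were higher in these settings. Bub1, a spindle checkpoint kinase, differed by 0.50 (adjusted p = 3.16e-07) and Ccne2, a cyclin of S-phase entry, by 0.59 (adjusted p = 5.94e-05). Ccnd2, a cyclin of growth factor response, gave -0.51 (adjusted p = 0.00924), and -0.35 (adjusted p = 0.0628) without iPSC-32. Against the same 25.3% higher and 19.2% lower of all genes, of 17 immediate early genes 8 were lower and 1 higher, of 16 cholesterol genes 6 were higher and 1 lower, and of 15 p53 targets 4 were lower. Of 16 primitive endoderm genes 5 were lower, and of 15 trophoblast and keratin genes 6 were lower and 1 higher. Without iPSC-34 these counts were 1 higher and 5 lower for immediate early, 5 higher and 2 lower for cholesterol, 0 higher and 2 lower for p53, 0 higher and 3 lower for endoderm and 0 higher and 5 lower for trophoblast genes. Of 13 epiblast genes 1 was higher and 4 lower, and of 10 genes of Nodal and activin signalling 4 were higher and 3 lower. Without iPSC-33, 5 immediate early genes were lower, 3 epiblast genes were higher and 3 lower, and 2 Nodal and activin genes were higher, as they were without iPSC-34. Without iPSC-32, 4 cholesterol genes were higher and 3 lower, and 4 endoderm genes were higher and 4 lower. Without both iPSC-32 and iPSC-34, 1 cholesterol gene was higher and 3 lower, 1 endoderm gene was higher and 1 lower, and 1 p53 target was lower, while 2 p53 targets were lower and 1 higher without iPSC-20. Over all 11807 genes, 2579 were higher and 1639 lower without iPSC-34, 2778 and 1909 without iPSC-33, and 3014 and 2499 without iPSC-32. Without both iPSC-32 and iPSC-34 these counts were 2389 and 1558, and without iPSC-20 they were 2999 and 2443. Of 4 sex-linked genes 1 was higher and 0 lower, and 0 were called without both iPSC-32 and iPSC-34. Their mean per clone, which mixes Xist with Y-linked genes, ran from -1.10 to -0.08 in PF and -1.97 to 0.44 in blood-derived clones. In the ESC it ran from -2.04 to -1.05.

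Among the 12 largest differences in each direction were genes of no list. Slc47a1, a toxin exporter on chromosome 11, read -2.68 to -2.12 in PF and -1.79 to -0.21 in blood-derived clones and differed by 1.54 (SE 0.12, adjusted p = 2.78e-10). Fam13c gave 1.45 (adjusted p = 1.24e-09), Ankrd44 1.37 (adjusted p = 1.11e-09), and Phyhipl 1.36 (adjusted p = 6.96e-12). Tnfsf13 (April), a ligand of B cells, gave 1.37 (adjusted p = 5.32e-11), and Neurod1, a neurogenic factor, 1.34 (adjusted p = 1.12e-08). For each of these, all 5 PF clones lay below all blood-derived clones. Usp17la, a deubiquitinase gene, read 1.52 in iPSC-32 and -2.84 to -1.85 in the other PF clones, against -1.23 to 0.45 in blood-derived clones, and differed by 1.29 (adjusted p = 0.00517), or by 0.90 (adjusted p = 0.0514) without iPSC-34. On the lower side, Olr1, a scavenger receptor, gave -1.74 (adjusted p = 2.53e-06), and Sprr2a1, of the cornified envelope, -1.70 (adjusted p = 9.10e-05). Sprr2a1 read 0.04 and 0.52 in the PF clones of mouse 1 and -2.72, 0.61 and 1.49 in those of mouse 2.

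The mice differed most clearly for Gng12, a G protein subunit. In mouse 1 it read 1.29 to 1.35 in PF and 1.33 to 1.64 in blood-derived clones. In mouse 2 PF clones read 1.37 to 1.48 and blood-derived clones 0.49 to 0.76, so it was the blood-derived clones that separated the mice. The difference between the mice was -0.91 (SE 0.10, adjusted p = 5.93e-06). Nphs1 (nephrin) showed the reverse layout: blood-derived clones read 1.30 to 1.72 and 1.38 to 1.82 in the 2 mice and PF clones 1.05 to 1.29 and -0.55 to 0.32. Its mice differed by 1.36 (SE 0.17, adjusted p = 1.02e-04). Gpx2, a glutathione peroxidase, differed by -0.24 (adjusted p = 0.0568) in mouse 1 and 0.48 (adjusted p = 3.64e-06) in mouse 2, with an adjusted p of 5.28e-04 between them.

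Each blood origin set alone against the same PF clones gave a similar number of genes: 4246 for HSC (36.0% of those tested), 4152 for GMP (35.2%) and 4089 for granulocytes (34.6%). These 3 share the PF clones and are not independent. For Trib3 the differences were 1.10, 1.20 and 1.22 for HSC, GMP and granulocytes, and for Mcts2 -2.51, -2.88 and -3.26. Gys1, the muscle glycogen synthase, and Otub2, a deubiquitinase, were among the 8 smallest p-values for at least 1 origin. Gys1 gave 1.07, 1.08 and 1.03, and Otub2 1.14, 1.25 and 1.29, although 1 other probe set of Otub2 gave -0.02 (adjusted p = 0.878) in the pooled fit. Over all genes, the difference from blood was more positive for PF than for TTF for 1071 genes and more negative for 689. Bmerb1 was among the smallest p-values there: it differed by 0.80 (adjusted p = 2.88e-10) from PF and -0.26 (adjusted p = 0.023) from TTF.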

How the data were processed

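The deposited table holds Affymetrix values of the authors on a log2 scale. How they were summarised and centred is not stated; base 2 was inferred from the range of -4.83 to 6.97. No value was missing, and the values were used as deposited. Of 22626 probe sets, 18003 named 1 gene in the platform annotation, 287 several and 4336 none. Each of 11807 genes was represented by its brightest probe set (highest mean).

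limma 3.58.1 in R 4.3.3 fitted each gene to the 27 clones with terms for origin and mouse (lmFit, eBayes), and p-values were adjusted over all genes by Benjamini-Hochberg, with a threshold of 0.05. Further fits tested each mouse, their difference, each blood origin, and TTF clones of chimera 2. The code was tested on simulated data. Promoter sequences and gene positions came from RefSeq tables (GRCm38.p6). The number of arrays limits the precision.

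Alternatives changed the normalization, the filter on dim genes, the probe sets, the variance model, the mouse term, the unit of replication, the weights and the clones. The members and gene lists were chosen with earlier results of these data known. Named genes were drawn from the 12 largest differences in each direction and up to 4 called genes per list. Where none of a list passed, up to 2 were taken. They also came from the reprogramming, meiotic, retrogene, PRC1.6 and Dlk1-Dio3 genes, and up to 8 genes with the smallest p in each other test. Not all of these are named: Serpinb9b, Hsf2, Calml4 and Alpk3, among the largest differences, were left out, as were some PRC1.6 and other genes. Asns, Ddit3 and Mcts1 were added after their values were seen.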

Additional observations from a re-analysis of the deposited data

Results flagged for a closer look

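In each group of 4 HSC-derived or 4 GMP-derived clones of 1 mouse, the highest or lowest clone was set against the other 3 for 113 genes. In 30 of 452 such groups its gap to the nearest clone exceeded 0.829 of the group's range, and chance does so in about 1 in 20 groups. The clones most often involved were iPSC-7 (6 genes), iPSC-11 and iPSC-27 (5 each).

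Among GMP-derived clones of mouse 1, iPSC-14 stood apart for Magel2 -2.24 (others -1.93 to -1.87) and Ddit3 1.94 (others 1.64 to 1.68). Among GMP-derived clones of mouse 1, iPSC-11 stood apart for Nupr1 4.49 (others 4.62 to 4.64), Thbs2 0.37 (others 0.89 to 0.98), Col6a2 -0.45 (others 0.06 to 0.10), Twist2 -1.09 (others -0.47 to -0.36) and Myc 2.40 (others 2.70 to 2.74). Among GMP-derived clones of mouse 2, iPSC-27 stood apart for Mcts1 3.15 (others 3.01 to 3.02), Meg3 1.73 (others 0.17 to 0.36), Rian 2.55 (others 0.48 to 0.64), Ehmt2 2.29 (others 2.12 to 2.14) and Myc 1.79 (others 1.35 to 1.42). Among GMP-derived clones of mouse 2, iPSC-28 stood apart for Pck2 2.94 (others 2.82 to 2.83) and Hmga2 3.04 (others 2.68 to 2.72). Among GMP-derived clones of mouse 2, iPSC-25 stood apart for Gpt2 3.78 (others 3.61 to 3.64). Among GMP-derived clones of mouse 2, iPSC-26 stood apart for Msh4 -3.73 (others -3.56 to -3.53). Among HSC-derived clones of mouse 1, iPSC-8 stood apart for Nap1l5 -1.96 (others -2.77 to -2.70). Among HSC-derived clones of mouse 1, iPSC-7 stood apart for Stag3 0.84 (others 1.32 to 1.33), Mlh3 0.39 (others 1.50 to 1.65), Thbs2 1.67 (others 0.70 to 0.84), Col6a2 0.88 (others -0.01 to 0.10), Ccnd2 3.61 (others 2.94 to 3.05) and Nphs1 1.30 (others 1.66 to 1.72). Among HSC-derived clones of mouse 1, iPSC-10 stood apart for Krt8 1.76 (others 2.13 to 2.20). Among HSC-derived clones of mouse 2, iPSC-24 stood apart for Slc6a9 1.42 (others 1.11 to 1.16). Among HSC-derived clones of mouse 2, iPSC-22 stood apart for Spo11 -4.05 (others -3.90 to -3.87) and Dmrt1 2.35 (others 2.11 to 2.14). Among HSC-derived clones of mouse 2, iPSC-21 stood apart for Psmb8 -0.27 (others -0.57 to -0.53), Nanog 4.89 (others 5.05 to 5.08) and Usp17la -0.70 (others 0.31 to 0.45).

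For 31 named genes the blood minus PF difference itself differed between the mice (limma, adjusted p under 0.05); values are the difference in mouse 2 minus that in mouse 1, on the log2 scale. Among fibroblast matrix, mesenchymal and secreted genes these were Thbs2 (-1.16), Col6a1 (-1.14), Col6a2 (-1.08), Twist2 (-1.64), Prrx1 (-1.09), Hmga2 (-0.85), Ccl7 (-1.11), Csf1 (-1.25), Mmp10 (-0.92), Inhba (-1.64), Fst (-1.60) and Fap (-1.02). Among Atf4-list, amino acid and meiotic genes these were Gpt2 (0.39), Psph (0.27), Nupr1 (-0.65), Stag3 (0.96), Sycp3 (0.85) and Tex11 (0.72). Among reprogramming, pluripotency and cell cycle genes these were Klf4 (0.55), Myc (-0.92), Nr0b1 (0.83) and Ccnd2 (-1.13). Among the other named genes these were H13 (-0.54), H2-D1 (-1.27), Bnip3 (0.93), Mixl1 (-1.07), Cd53 (-1.60), Neurod1 (0.97), Gng12 (-0.91), Nphs1 (1.36) and Gpx2 (0.72).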

How the results depend on the processing

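Of 113 named genes, 102 were called for blood minus PF. When each clone was left out in turn, 88 stayed called, 14 lost the call at least once and 0 changed sign. With mouse 1 alone 37 of the 102 lost the call, and with mouse 2 alone 10. Leaving out 1 clone gave 4218 to 5513 called genes for blood minus PF, 244 to 1954 in mouse 1, 3511 to 5251 in mouse 2 and 87 to 1106 between the mice. It gave 3302 to 4740 for HSC, 3354 to 4549 for GMP, 3324 to 4471 for granulocytes and 1519 to 2185 for PF against TTF. The lowest counts in mouse 1 and between the mice came without iPSC-19, and the highest between the mice, 1106 and 1002, without iPSC-32 and iPSC-33. Without iPSC-32 and iPSC-34 together, chosen after seeing the data, 2221 genes were called in mouse 1, 2857 in mouse 2 and 135 between the mice. Mouse 1 alone gave 1532 for blood minus PF. Quantile normalization gave 4744, 1 mean per origin and mouse 4606, a fit over all groups 4216 and no mouse term 4865. The filter on dim genes gave 3937 out of fewer genes, those above the 40th percentile of mean value. All stayed within 1.5 times the main count of 5256. The cause of these shifts was not tested.

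Directions turned as follows. With mouse 1 alone, H13 gave 0.18, Commd1 0.064, Fap 0.085, Klf4 -0.017, Myc 0.33, Nanog -0.11, Ccnd2 0.15, Gng12 0.12 and Gpx2 -0.24. With mouse 2 alone E2f6 gave -0.068. Quantile normalization gave Msh4 0.0063, E2f6 -0.0069 and Nanog -0.029. The fits to 1 mean per origin and mouse and to all groups gave Nanog -0.0052. The mean of its probe sets gave Commd1 0.039, and leaving out iPSC-32 and iPSC-34 gave it 0.078. Single probe sets gave Commd1 0.11, Atf4 -0.069, Msh5 0.094, Pcgf6 -0.23, Ehmt2 -0.076 and Otub2 -0.02. Leaving out 1 clone moved Commd1 between -0.085 and 0.049, Msh4 between -0.052 and 0.0067, E2f6 between -0.026 and 0.11, and Nanog between -0.046 and 0.065.

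No paired analysis was possible because clone numbers run through the series and PF and blood-derived clones share none. The mouse was a term of the fit.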
